A study of Mus musculus with 72 samples.

Results

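Phase II conjugating enzymes join a water-soluble group to drugs, steroids, bile acids and products of lipid peroxidation, so that these can leave the cell in bile or urine. Glutathione transferases (Gst genes) add glutathione, UDP-glucuronosyltransferases (Ugt genes) add glucuronic acid, and sulfotransferases (Sult genes) add sulfate. The liver is the main site of this work, and airway epithelium carries a smaller set of the same enzymes. Members were chosen by gene symbol, not by measured values: every mRNA array probe whose RefSeq accession belongs to a mouse gene named Gsta, Gstm, Gstp, Gstt, Gsto, Gstz, Gstk, Ugt or Sult with a number, if it was well above background on at least 1 of 36 arrays. This gave 72 of 56605 non-control probes, for 56 of 23787 genes named on the arrays, of which 21 were Gst, 15 Ugt and 20 Sult genes. By symbol 75 probes qualified, and 3 of them, for Sult6b2 and second probes of Sult2a6 and Sult4a1, were not above background. RefSeq lists 67 such symbols, and 10 of them, among them Gsta1, Ugt1a1 and Ugt1a9, had no probe here. In all, 68 member probes of 54 genes could be tested in liver and 64 of 50 genes in lung.

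RNA came from liver and lung of female C57BL/6 J mice, for which no mutant allele or transgene is named, 6 to 8 weeks old, 48 h after 1 whole-body dose of X-rays at 1.05 Gy/min. The doses were 0 (sham exposure), 1, 2, 4, 8 and 12 Gy, with 3 mice per dose and tissue. Mice carry the sample numbers of the labels, which do not state whether liver and lung of 1 number are from 1 mouse, and the controls were mice 1, 11 and 21. Values are given in the order of these numbers. Each of 36 mRNA arrays measured 1 organ of 1 mouse, and the number of arrays limits the precision. All comparisons with 0 Gy in a tissue share its 3 control arrays. In bulk tissue, fewer cells of a type and less RNA per cell cannot be told apart. Values are normalised log2 intensities. A difference of 1 on this scale is a 2-fold change, and the level of 1 probe says nothing against that of another. A probe was called where its log2 change exceeded 1 in size with an adjusted p below 0.05 (limma, Benjamini-Hochberg over all probes of the comparison).

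Between 46.1% and 54.0% of spots were well above background on the liver arrays and between 54.1% and 64.0% on the lung arrays, and no spot was saturated. The 5 slides follow tissue and dose closely. Liver 0 and 1 Gy were on the first slide, and liver 4 and 8 Gy on the second. Lung 0 and 1 Gy were on the third, lung 2 and 4 Gy on the fourth and lung 12 Gy on the fifth. The 8 Gy lungs were on the fourth slide, apart from 1 on the fifth. In lung, therefore, none of 2, 4, 8 and 12 Gy against 0 Gy can be told apart from slide. All 15 hepatocyte markers were above background in every liver, with a mean between 17.78 and 17.92. The lungs carried the markers of their own cell types, with 7 of 7 club cell, 9 of 9 ciliated cell and 9 of 9 alveolar type 2 cell markers above background at 0 and at 12 Gy. The p53 response list rose at 12 Gy in 9 of 10 genes in liver and in 10 of 10 in lung. B cell markers fell at 12 Gy in 11 of 12 genes in lung, with a median of -3.75, and in 8 of 11 genes in liver.

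The promoters of 6 sulfotransferase genes are shown because the dose results and the variation between livers below turn on them: Sult1d1 and Sult1a1 rose with dose, and Sult2a4, Sult2a5 and Sult2a6 varied together between livers while their neighbour Sult2a8 did not. The sequences are from RefSeq, build GRCm38, 250 bases before and 50 bases from the first listed start of each gene, 5′ to 3′ on the gene's strand. For Sult1a1 that start lies inside the gene, which spans bases 126672865 to 126690443, and not at its outer end. Capitals mark TATAAA, the TATA box, and GTTAAT, a half-site of the liver factor HNF1, on either strand, as letters and without regard to position.
Sult1d1, chr5:87568957-87569256 on the minus strand: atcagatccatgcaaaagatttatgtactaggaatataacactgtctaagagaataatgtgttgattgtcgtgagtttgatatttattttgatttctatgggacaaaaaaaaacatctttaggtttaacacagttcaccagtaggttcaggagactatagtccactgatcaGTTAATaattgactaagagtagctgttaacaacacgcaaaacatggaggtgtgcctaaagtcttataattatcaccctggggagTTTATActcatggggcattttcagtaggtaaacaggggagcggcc
Sult1a1, chr7:126676369-126676668 on the minus strand: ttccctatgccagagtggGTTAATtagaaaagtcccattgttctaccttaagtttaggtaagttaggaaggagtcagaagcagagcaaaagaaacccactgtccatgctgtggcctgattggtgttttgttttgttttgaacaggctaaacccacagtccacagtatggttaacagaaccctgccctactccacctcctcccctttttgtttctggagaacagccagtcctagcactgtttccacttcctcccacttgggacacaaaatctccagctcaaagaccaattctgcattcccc
Sult2a4, chr7:13989539-13989838 on the minus strand: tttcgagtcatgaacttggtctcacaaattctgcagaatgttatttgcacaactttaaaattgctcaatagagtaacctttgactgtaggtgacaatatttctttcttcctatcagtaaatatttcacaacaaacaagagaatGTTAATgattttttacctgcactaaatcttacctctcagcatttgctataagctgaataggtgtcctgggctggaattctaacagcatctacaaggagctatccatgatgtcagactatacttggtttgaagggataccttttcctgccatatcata
Sult2a5, chr7:13623717-13624016 on the plus strand: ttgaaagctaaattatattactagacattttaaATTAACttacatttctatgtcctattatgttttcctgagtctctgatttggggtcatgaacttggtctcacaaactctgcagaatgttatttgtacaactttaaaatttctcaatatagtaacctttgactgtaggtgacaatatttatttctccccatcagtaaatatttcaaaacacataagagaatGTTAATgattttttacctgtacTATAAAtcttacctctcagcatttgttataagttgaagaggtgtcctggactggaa
Sult2a6, chr7:14254821-14255120 on the minus strand: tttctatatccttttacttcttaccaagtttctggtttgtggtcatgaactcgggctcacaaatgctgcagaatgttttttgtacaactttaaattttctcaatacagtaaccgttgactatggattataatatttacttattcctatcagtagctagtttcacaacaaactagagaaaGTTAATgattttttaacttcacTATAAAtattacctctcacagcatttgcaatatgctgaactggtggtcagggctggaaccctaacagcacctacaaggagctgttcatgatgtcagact
Sult2a8, chr7:14446538-14446837 on the minus strand: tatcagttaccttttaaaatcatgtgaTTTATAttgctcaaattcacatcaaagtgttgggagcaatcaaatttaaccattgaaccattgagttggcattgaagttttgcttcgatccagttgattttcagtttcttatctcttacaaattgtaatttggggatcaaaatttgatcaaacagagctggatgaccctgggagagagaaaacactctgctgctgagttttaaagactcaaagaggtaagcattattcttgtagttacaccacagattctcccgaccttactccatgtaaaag
RefSeq promoters were matched for 48 of the 56 member genes, with 59 promoters in all. GTTAAT lay in 20.3% of the member promoters and in 7.10% of all 32851 promoters of the same length. TATAAA lay in 22.0% of the member promoters and in 13.6% of all. The antioxidant response element TGACNNNGC, bound by the factor Nrf2, lay in 5.085% against 12.4%, the core of the xenobiotic response element GCGTG in 18.6% against 32.4%, and the nuclear receptor half-site AGGTCA in 16.95% against 16.3%. The half-site of p53 lay in 5.085% of the member promoters and in 8.36% of all. All motifs were searched on both strands, and the marked matches in the printed windows do not overlap. Sult2a3, Sult2a4, Sult2a5 and Sult2a6 hold the same 15 bases, GTTAATgatttttta, and Sult2a8 shares a run of 7 of them. These are matches of letters and not mapped binding sites.

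Before any irradiation, most phase II genes stood far lower in lung than in liver. Of 72 member probes, 60 were called, 3 higher and 57 lower in lung, in 48 of 56 genes, while 34.8% of all probes tested were called. With any size of change 63 of 72 passed, against 52.8% of all probes. Member probes above background on at least 1 array of each tissue also numbered 60, not the same set as those called. The others, among them those of Ugt2b35 and Sult3a1 in liver and Ugt8a in lung, entered through 1 tissue only. Their difference is in part set by that filter, which all probes tested also had to pass. The median difference, lung minus liver on the log2 scale, was -1.98 over the 21 Gst genes, -4.94 over the 20 Sult genes and -9.04 over the 15 Ugt genes, beside -0.05 over all probes. When arrays were instead scaled to the 75th percentile, the median of all probes moved to -0.28 and the 3 class medians to -3.00, -5.93 and -11.10, in the same direction. With a normexp offset of 50 the class medians were -1.98, -3.44 and -7.38, beside -0.02 for all probes. The medians include genes not above background in lung, so their size depends on how weak signals are treated. The liver and lung control arrays were on different slides. With slide as a term of the model 60 member probes were again called.

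The glucuronosyltransferases set the lower end. Ugt2b enzymes act on steroids and bile acids, and Ugt2b5 stood at 15.80, 15.86 and 15.80 in the control livers and at 4.17, 4.09 and 4.96 in the control lungs. No lung value was above background, so Ugt2b5 was at least 2629-fold lower in lung (adjusted p = 1.73e-13). Ugt2b36 was likewise at least 1917-fold lower (adjusted p = 5.09e-15). Ugt2b38, above background in 2 of 3 control lungs, differed by -11.24 (SE 0.774, adjusted p = 4.1e-13). Ugt3a2, a UDP-glycosyltransferase, differed by -10.60 (SE 0.471, adjusted p = 2.22e-17), and Ugt2b34, above background in all 3 control lungs, by -10.03 (SE 0.528, adjusted p = 1.02e-15). These 5 genes were chosen for their fitted differences, and their order against other genes not above background in lung is not known.

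Only 3 member genes were called higher in lung. Sult2b1, which sulfates cholesterol in epithelia, stood at 8.09, 9.13 and 8.30 in the control lungs and at 5.81, 4.99 and 4.94 in the control livers, where it was not well above background. It was at least 9.57-fold higher in lung (adjusted p = 1.46e-06). Sult4a1, known from brain, was at least 2.52-fold higher (adjusted p = 0.0254), and Ugt8a, the enzyme that makes galactosylceramide for myelin, at least 2.02-fold (adjusted p = 0.00501). With a normexp offset of 50 the log2 difference was 0.75 for Sult4a1 and 0.51 for Ugt8a, under the limit of 1. Without the control samples numbered 1 of both tissues the Sult4a1 difference was 1.05 (adjusted p = 0.159), without those numbered 21 it was 1.40 (adjusted p = 0.0668), and without those numbered 11 the Ugt8a difference was 0.89 (adjusted p = 0.0706).

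Bright genes of each class were measured well in both tissues, among them Gsta3, an alpha class glutathione transferase, Ugt1a6b, which glucuronidates phenols, and Sult1a1, the phenol sulfotransferase. Gsta3 stood at 15.70, 15.73 and 15.43 in lung and 17.78, 17.77 and 17.73 in liver, a difference of -2.14 (SE 0.119, adjusted p = 3.11e-15). Ugt1a6b differed by -3.52 (SE 0.122, adjusted p = 8.51e-20) and Sult1a1 by -2.32 (SE 0.15, adjusted p = 1.07e-13). Ugt1a genes are known to share their last exons, so a probe there reads several of them, and related Gstm, Sult2a and Ugt2b genes may also share signal between probes. Among the 8 genes that were not called, named here after their values were seen, Gstm2 stood at 15.00, 14.97 and 14.81 in lung and 14.91, 14.83 and 14.98 in liver, and the groups overlapped. Gsto1 likewise differed by 0.10 (SE 0.135, adjusted p = 0.595).

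**Figure D1:**
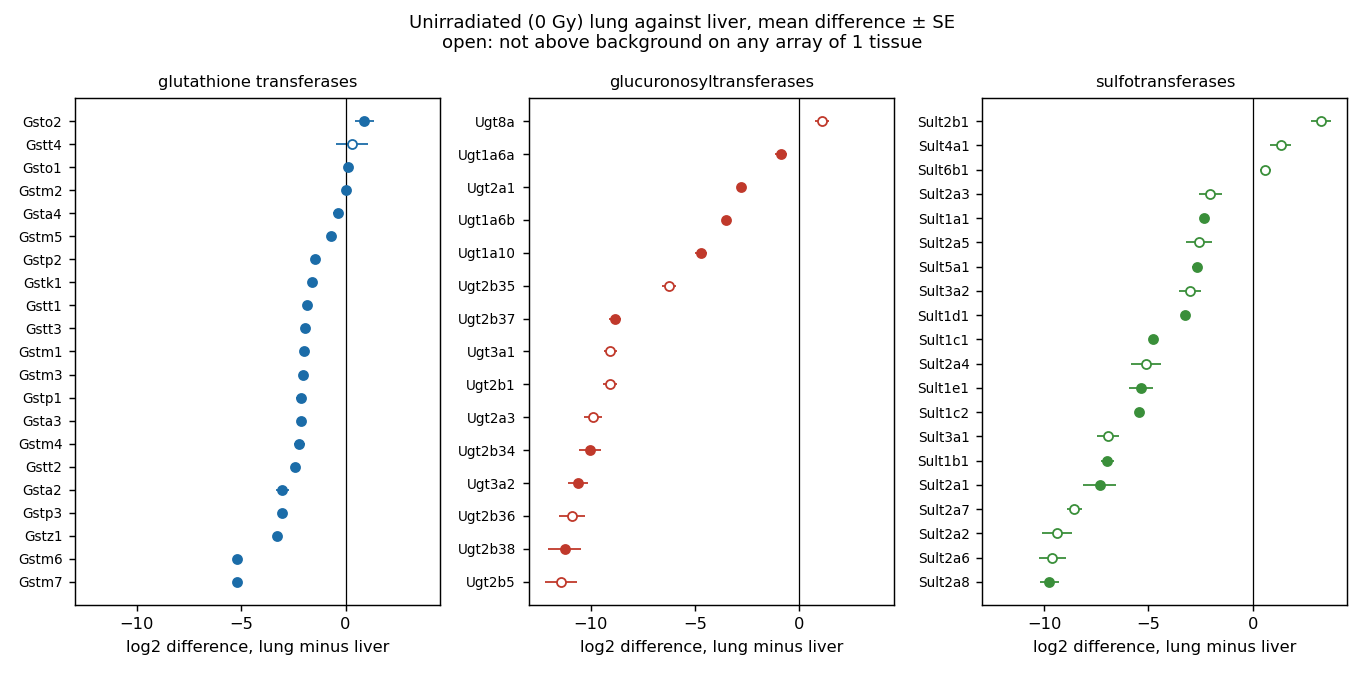
Log2 difference between unirradiated lung and liver for each member gene (brightest probe, 3 mice per tissue), grouped by class, with the standard error of the model, and open points where 1 tissue had no array above background. Open points are limits only, as for Ugt2b5, at least 2629-fold lower in lung, and Sult2b1, at least 9.57-fold higher.

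In irradiated liver few phase II genes changed. At 1 and at 2 Gy no member probe was called or passed at any size, against 0.0339% and 0.245% of all probes called and 0.0417% and 0.461% at any size, and 9 of 68 member probes had an unadjusted limma p below 0.05 at each dose. At 4 Gy 0 of 68 were called (0.944% of all) and 1 passed at any size (3.31% of all). At 8 Gy 3 of 68 were called (2.2% of all) and 5 passed at any size (9.9% of all). At 12 Gy 1 was called (2.06% of all) and 3 passed at any size (7.01% of all). All of these were higher than at 0 Gy. Over the doses together 4 probes of 3 genes, Sult1d1, Gsta2 and Sult2a7, were called, beside 3.17% of all probes. At 8 Gy the members' shares were 4.41% called and 7.35% at any size, above and below those of all probes in either direction. Of all 38362 probes 322 were called higher and 523 lower, and 1900 passed higher and 1898 lower. By brightest probe 4 genes were higher and 0 lower at 8 Gy, and after scaling to the 75th percentile, which moved the median of all probes from 0.00 to 0.13, 2 were higher and 1 lower.

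Sult1d1, a sulfotransferase of catecholamines and other phenols, rose from 4 Gy on. Its level was 13.80, 13.43 and 13.41 at 0 Gy, 14.30, 14.13 and 14.05 at 4 Gy, 14.56, 14.62 and 14.57 at 8 Gy and 14.37, 14.37 and 14.68 at 12 Gy. Every liver at these 3 doses lay above every control liver, which adds no support, as the gene was picked by the test. The change was 0.61 (SE 0.145, adjusted p = 0.0333) at 4 Gy, 1.04 (SE 0.145, adjusted p = 0.000774) or 2.05-fold at 8 Gy, and 0.93 (SE 0.145, adjusted p = 0.00142) at 12 Gy. Its second probe changed by 1.05 at 8 Gy and by 0.87 at 12 Gy, both past the test. Between 8 and 4 Gy, on 1 slide, the difference was 0.43 (adjusted p = 0.336), and no member was called there (0% of all probes). With slide as a term of the model the change at 8 Gy was 1.05 (adjusted p = 0.110), and without control mouse 11 or 21 it was 0.98 or 0.97, just under the limit of 1, and still past the test.

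Gsta2, an alpha class glutathione transferase that acts on products of lipid peroxidation, stood at 13.21, 12.02 and 12.78 at 0 Gy. At 8 Gy it stood at 14.02, 13.54 and 15.08, above every control, and the change was 1.54 (SE 0.342, adjusted p = 0.0125), 2.91-fold. At 12 Gy it stood at 13.22, 13.74 and 13.53, also above every control, with a change of 0.82 (SE 0.342, adjusted p = 0.182) that did not pass. Lying above the controls adds no support, as Gsta2 was picked by the test. Mouse 11 was the lowest control, and without it the change at 8 Gy was 1.21 (adjusted p = 0.0629). With slide as a term it was 1.47 (adjusted p = 0.324). The trend over dose was 0.66 (SE 0.355, adjusted p = 0.277).

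Sult2a7, one of the sulfotransferases of steroids and bile acids, stood at 12.40, 11.67 and 11.90 at 0 Gy and 13.06, 13.50 and 13.07 at 12 Gy. The groups did not overlap, which adds no support, as the gene was picked by the test. The change was 1.22 (SE 0.288, adjusted p = 0.0183), 2.33-fold. Its level did not follow dose, since it was 13.71, 13.88 and 12.98 at 1 Gy and 13.13, 12.78 and 11.90 at 8 Gy, and its trend was 0.34 (SE 0.374, adjusted p = 0.652). Without control mouse 11, control mouse 21 or 12 Gy mouse 16 the change at 12 Gy was 1.06 (adjusted p = 0.0923), 1.18 (adjusted p = 0.0603) or 1.08 (adjusted p = 0.0672), and with slide as a term it was 0.91 (adjusted p = 0.597).

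At smaller size, Sult1a1 rose at 8 Gy by 0.52 (SE 0.148, adjusted p = 0.0374) and Gstt2, a theta class glutathione transferase, by 0.52 (SE 0.151, adjusted p = 0.0419). The dose trend in liver, the fitted change over 12 Gy, called 0 of 68 member probes (2.02% of all) and passed 4 at any size (9.51% of all). These were both probes of Sult1d1, at 0.90 (SE 0.153, adjusted p = 0.000946) for the brighter, Gstp2 of the pi class at 0.53 (SE 0.156, adjusted p = 0.0384), and Gstm6 of the mu class, which fell by 0.40 (adjusted p = 0.0112). By class at 12 Gy, 0 of 21 Gst, 0 of 14 Ugt and 2 of 19 Sult genes passed the test. The median change was 0.10 for Gst, 0.22 for Ugt and -0.16 for Sult genes, beside 0.01 for all probes. After scaling to the 75th percentile the Sult median was -0.41, beside 0.11 for all probes. All 14 Ugt genes lay above the median of all probes, 12 of them after scaling to the 75th percentile, but none passed the test. None of 68 member probes was called or passed between 12 and 8 Gy (0% of all probes), and 8 had an unadjusted p below 0.05.

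A group of Sult2a genes varied widely between livers of 1 dose. These enzymes sulfate bile acids and hydroxysteroids, and 10 of the 20 Sult members lie on chromosome 7. Sult2a4 stood at 5.95, 8.47 and 9.35 at 0 Gy, 11.10, 11.35 and 9.56 at 4 Gy, 11.24, 9.02 and 10.63 at 8 Gy and 6.92, 6.12 and 8.42 at 12 Gy. All livers at 4 Gy were above the controls, while those at 8 and at 12 Gy overlapped them. The change was 2.75 (SE 0.904, adjusted p = 0.115) at 4 Gy, 2.37 (SE 0.904, adjusted p = 0.113) at 8 Gy and -0.77 (SE 0.904, adjusted p = 0.714) at 12 Gy, none past the test, and the difference of 12 Gy from 8 Gy was -3.14 (adjusted p = 0.394). Its SD within a dose was 1.21 on the log2 scale, above 99.96% of the probes measured on every liver array. That of Sult2a1 was 1.43, and the median over member genes was 0.234.

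Sult2a1, Sult2a2, Sult2a4, Sult2a5 and Sult2a6 moved together from liver to liver. Probes of such related genes may share signal, and these genes were grouped after their values were seen. Over 18 livers, which also share slides, their pairwise Pearson correlations lay between 0.913 and 0.994, and between 0.822 and 0.989 after the dose means were removed. With Sult2a7 or Sult2a8 they lay between -0.195 and -0.012. Control mouse 1 had the lowest value of the 3 controls in each of these genes, with Sult2a1 at 8.95 against 11.97 and 12.76, and Sult2a6 at 12.55 against 14.78 and 15.23. Sult2a8 in the same mice was 16.15, 15.72 and 15.98. Over the printed windows aligned end to end, Sult2a4 and Sult2a5 share 50.8% of their bases, Sult2a5 and Sult2a6 64.8%, and Sult2a4 and Sult2a8 55.7%. The windows are set off from each other, since the shared GTTAAT begins at -107 from the start in Sult2a4 and at -28 in Sult2a5. These shares therefore do not measure the likeness of the promoters, and whether likeness follows the split was not tested. Sult1e1, the oestrogen sulfotransferase, was also variable, with an SD within a dose of 1.12 and values of 8.13, 12.06 and 10.98 at 12 Gy.

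**Figure D2:**
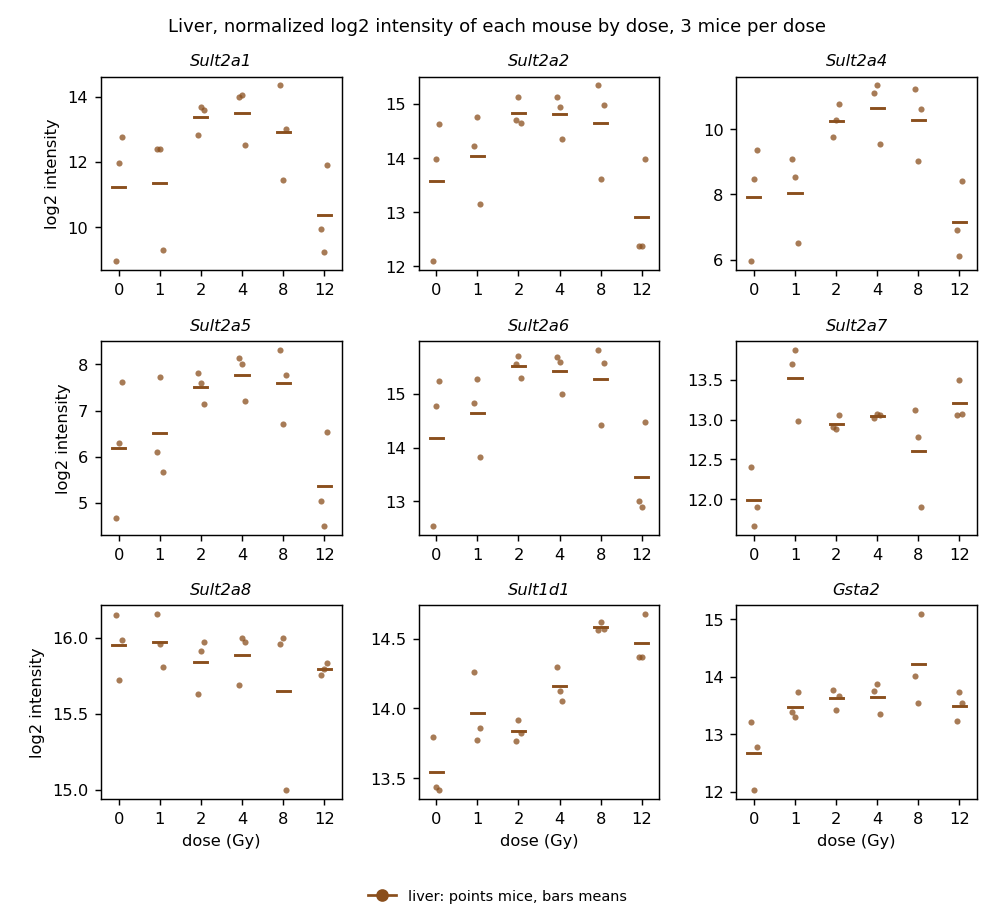
Normalised log2 intensity of 9 liver genes in each of 18 mice by dose in Gy, 1 point per mouse with the mean of each dose. Sult1d1 lies above the controls from 4 to 12 Gy, while in Sult2a1, Sult2a2, Sult2a4, Sult2a5 and Sult2a6 the same mice lie high or low within a dose, as control mouse 1 at 8.95 in Sult2a1.

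In irradiated lung some members rose at the high doses. At 1 and 2 Gy none of 64 member probes was called (0.0227% and 0.446% of all) or passed at any size (0.025% and 0.555% of all), and 1 and 4 had an unadjusted limma p below 0.05. At 4 Gy 0 were called (1.46% of all) and 1 passed at any size (2.18% of all). At 8 Gy 1 was called (2.51% of all) and 5 passed (4.25% of all). At 12 Gy 6 were called (7.29% of all) and 19 passed (21.4% of all), all of them higher than at 0 Gy. Over the doses 6 probes of 5 genes were called, beside 7.77% of all probes. At 12 Gy the members' shares were 9.375% called and 29.7% at any size, all rises, while the shares of all probes hold both directions. Of all 43979 probes 1329 were called higher and 1878 lower, and 5958 passed higher and 3434 lower. The median change of the 50 member genes at 12 Gy was 0.44, beside 0.09 for all probes.

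Sult1a1, which sulfates phenols, rose from 4 Gy on. It stood at 14.06, 14.19 and 14.02 at 0 Gy, 13.90, 14.17 and 14.38 at 2 Gy, 14.90, 14.82 and 14.85 at 4 Gy, 15.13, 14.95 and 15.32 at 8 Gy and 15.26, 15.42 and 15.18 at 12 Gy. From 4 Gy on every lung lay above every control, which adds no support, as the gene was picked by the test. The change was 0.77 (SE 0.166, adjusted p = 0.0214) at 4 Gy, 1.04 (SE 0.166, adjusted p = 0.00114) at 8 Gy and 1.20 (SE 0.166, adjusted p = 0.000233) at 12 Gy, the last being 2.3-fold. Its second probe rose by 1.09 at 12 Gy. Both probes were called at 12 Gy under all 8 alternatives and with each mouse left out in turn. Slide as a fixed term is not among these 8, as it could not be fitted here. Within the fourth slide alone Sult1a1 was higher by 0.71 at 4 Gy (adjusted p = 0.436) and by 0.89 at 8 Gy (adjusted p = 0.0974) than at 2 Gy, where 0 of 62 member probes were called, beside 0% and 0.293% of all. At 8 Gy the change was 0.95 (adjusted p = 0.00603) without mouse 25, the 8 Gy lung on the fifth slide.

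Gsto2, an omega class enzyme that reduces dehydroascorbate, stood at 8.77, 8.75 and 9.06 at 0 Gy and 9.99, 10.40 and 9.85 at 12 Gy. It rose by 1.22 (SE 0.198, adjusted p = 0.000798), 2.33-fold, and was called at 12 Gy under all 8 alternatives and with each mouse left out. Those 8 likewise do not hold slide as a fixed term. The second probe of Gsto2 was near background and changed by 0.24. Sult1d1 stood at 11.05, 11.22 and 10.62 at 0 Gy and 11.59, 12.34 and 12.01 at 12 Gy, a change of 1.02 (SE 0.216, adjusted p = 0.0046), with 0.89 for its second probe. Sult1e1, near background in the controls, stood at 5.68, 5.61 and 5.40 and 6.27, 6.71 and 6.77, a change of 1.02 (SE 0.207, adjusted p = 0.0036), and had risen at 8 Gy by 0.82 (SE 0.207, adjusted p = 0.0336). None of these groups overlapped at 12 Gy, which adds no support, as the genes were picked by the test.

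Sult5a1 stood at 10.40, 9.75 and 9.88 at 0 Gy and 11.10, 11.29 and 10.69 at 12 Gy, a change of 1.02 (SE 0.215, adjusted p = 0.00459). Its second probe did not change in the same way, at -0.08 (adjusted p = 0.812). Without control mouse 21 the changes of Sult5a1, Sult1e1 and Sult1d1 at 12 Gy were 0.95, 0.94 and 0.85, and without 12 Gy mouse 16 they were 0.89, 0.96 and 0.84, under the limit of 1 and with adjusted p of 0.0186 to 0.0253 and 0.0164 to 0.0241. In each case 3 of the 6 called probes were left. With slide as a random block none of the 3 genes passed, with adjusted p of 0.0768 for Sult5a1, 0.0589 for Sult1e1 and 0.0634 for Sult1d1. Sult1e1 was at 0.59 with a normexp offset of 50 and at 0.81 (adjusted p = 0.369) with both tissues fitted together. Sult5a1 was also under 1 without control mouse 11 at 0.89 or 12 Gy mouse 6 at 0.98, and Sult1e1 without 12 Gy mouse 26 at 0.93.

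The other lung changes at 12 Gy were smaller than 2-fold. In the Gst class 9 of 20 genes, Gsto2 among them, rose by their brightest probe, and none fell. Of all 43979 probes tested 5958 passed higher and 3434 lower. Gsta3 rose by 0.84 (SE 0.134, adjusted p = 0.000745) and had risen at 8 Gy by 0.67 (SE 0.134, adjusted p = 0.00783). It stood at 15.93, 15.96 and 15.66 at 0 Gy and 16.52, 16.77 and 16.77 at 12 Gy, with no overlap. Gstz1, an enzyme of tyrosine breakdown, rose by 0.59 (SE 0.145, adjusted p = 0.0102), Gstm5 by 0.62, Gstp2 by 0.61, Gstt3 by 0.59, Gstt1 by 0.51, Gstm2 by 0.45 and Gstk1, a mitochondrial and peroxisomal form, by 0.43. In Gstm5 alone of these the groups overlapped, and as the genes were picked by the test, the lack of overlap elsewhere adds no support. Gstm1 rose by 0.72 on its second probe (adjusted p = 0.00508), while its brightest probe changed by -0.36 (adjusted p = 0.203), so its probes disagree. In the Sult class 4 of 16 genes rose and in the Ugt class 1 of 14, namely Ugt8a by 0.93 (SE 0.266, adjusted p = 0.0221). Ugt1a6b passed on a second probe only, at 0.67. Genes named here at under 2-fold were chosen because they passed the test. The 19 member probes that passed cover 16 genes. Not every further probe of Gsta3, Gstm5, Gstz1, Sult1d1 and Ugt8a can therefore be among them.

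Over all doses the lung trend called 4 of 64 member probes (7.02% of all) and passed 21 at any size (30.7% of all), 20 of them rising. Of all probes 8653 passed rising and 4847 falling. The called member probes were both of Sult1a1, at 1.36 (SE 0.167, adjusted p = 1.58e-05) for the brighter, with Gsto2 at 1.07 (SE 0.162, adjusted p = 0.000113) and Sult5a1 at 1.05 (SE 0.164, adjusted p = 0.000153). Without 12 Gy mouse 16 the trend was 0.91 for Gsto2 and 0.94 for Sult5a1, leaving 2 called probes. With slide as a term the trends were 1.26 (adjusted p = 0.340) for Sult1a1, 0.52 (adjusted p = 0.867) for Gsto2 and 0.52 (adjusted p = 0.912) for Sult5a1, and no member was called. None of 64 probes was called or passed between 12 and 8 Gy (0.184% and 0.234% of all), and 11 had an unadjusted p below 0.05.

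**Figure D3:**
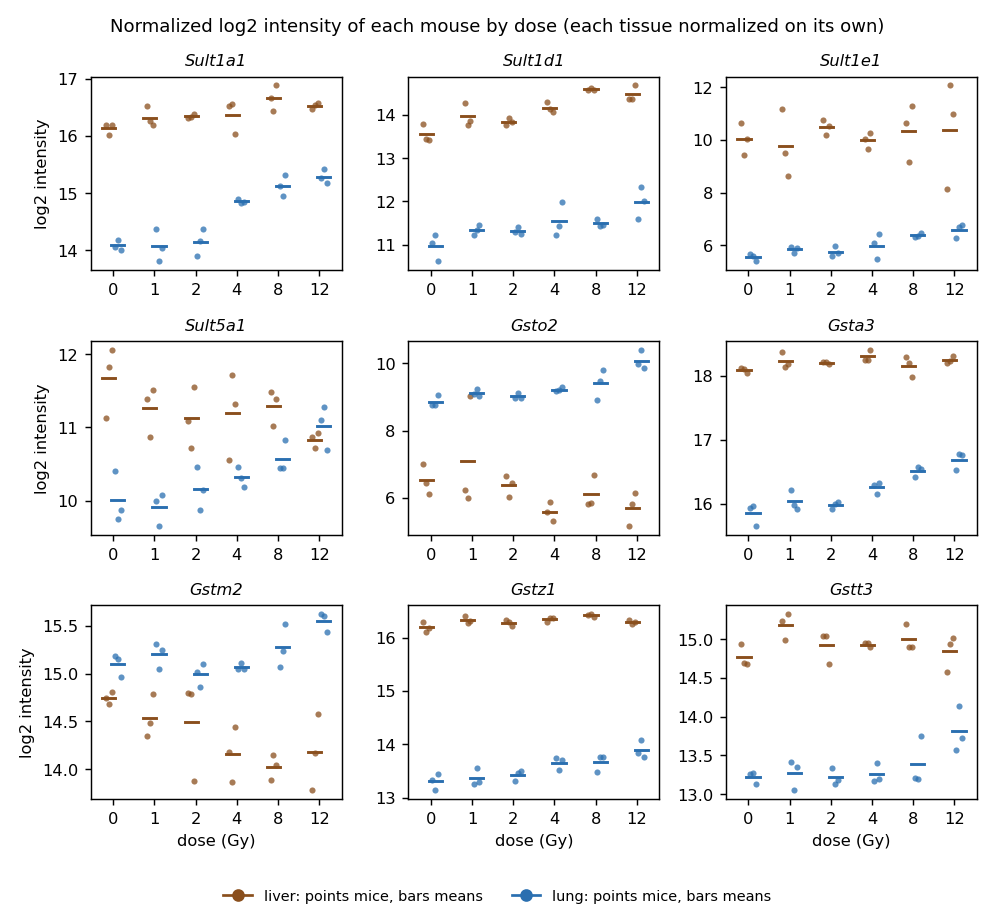
Normalised log2 intensity by dose in Gy for 9 genes in lung and liver, 1 point per mouse with dose means, each tissue normalised on its own. Lung Sult1a1 rises from 14.06, 14.19 and 14.02 at 0 Gy to 15.26, 15.42 and 15.18 at 12 Gy.

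Lung and liver differed in their response for some members. The difference of the dose trends, lung minus liver over 12 Gy, was called for 3 of 72 member probes (7.19% of all). It passed at any size for 11 (16.5% of all), all with the higher trend in lung. Of all probes 5188 passed with the higher trend in lung and 2650 with the lower. The 3 called members were Gsto2 at 2.17 (SE 0.536, adjusted p = 0.00501), Sult5a1 at 1.61 (SE 0.291, adjusted p = 0.000308) and Gstm2 at 1.01 (SE 0.246, adjusted p = 0.00452). Second probes of Gsto2, near background, and of Sult5a1 did not pass. Gstm2 of the mu class stood in liver at 14.75, 14.68 and 14.80 at 0 Gy and 13.89, 14.15 and 14.04 at 8 Gy, where the change was -0.72 (SE 0.245, adjusted p = 0.0793). In lung it stood at 15.18, 15.15 and 14.96 at 0 Gy and 15.62, 15.60 and 15.43 at 12 Gy. Its difference of trends was between 0.89 and 0.99 when any 1 of 8 mice was left out, with adjusted p of 0.0331 at most, so its call rests on the limit of 1. Liver Gsto2 was low, and its value of 9.03 in the 1 Gy mouse 22 stood far above the other irradiated livers, between 5.17 and 6.69. With slide as a term no member was called.

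**Figure D4:**
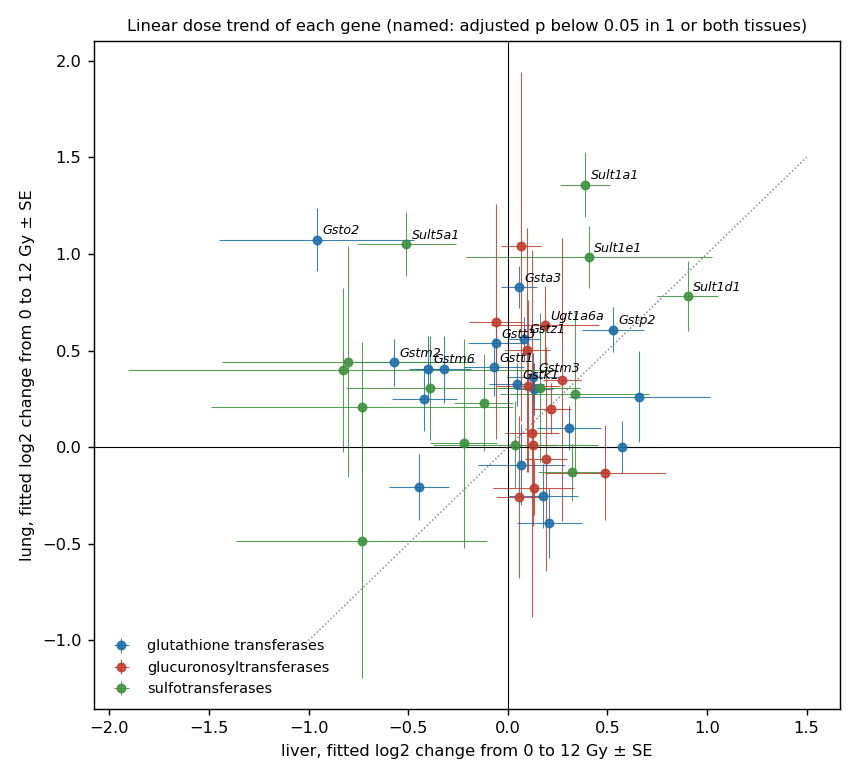
Dose trend over 12 Gy (log2, with SE) of each member gene in lung against that in liver, from separate fits of 18 arrays each, with a dotted line of equal trends. Sult1a1 lies highest in lung at 1.36 with 0.39 in liver, and Sult1d1 passed the test in both tissues.

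The lungs differed in their hepatocyte marker levels. The mean of 15 hepatocyte markers ranged from 6.85 to 12.74 over the 18 lungs, highest in 4 Gy mouse 24, where Alb, serum albumin, stood at 14.75 against 7.99 and 8.30 in the other lungs of that dose. The mean of the 19 member genes that were above background in at least 1 lung and over 32-fold lower in control lung than in control liver followed it, with a Pearson correlation of 0.882 over 18 lungs and 0.881 without mouse 24. These 19 were chosen by their tissue difference and by detection in at least 1 lung, which for Ugt2b1 was 1 lung and for Sult2a1 and Sult2a7 2 of 18, so the correlation is in part set by that choice. At 12 Gy the hepatocyte mean was 9.98, 10.59 and 8.57, against 7.69, 8.88 and 9.50 at 0 Gy. The part of this in the changes of the lung members was not tested. Sult1e1 is 1 of the 19, and Sult1a1, Gsto2, Sult1d1 and Sult5a1 are not. Without mouse 24 and 12 Gy mouse 16 together, 3 probes, both of Sult1a1 and that of Gsto2, were called in the lung dose comparisons. Ciliated cell markers also rose at 12 Gy in 5 of 9 genes, club cell markers in 3 of 7 and alveolar type 1 markers in 3 of 6, where 21.4% of all probes passed, beside the fall of lymphocyte markers, and their part in the member changes was not tested.

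**Figure D5:**
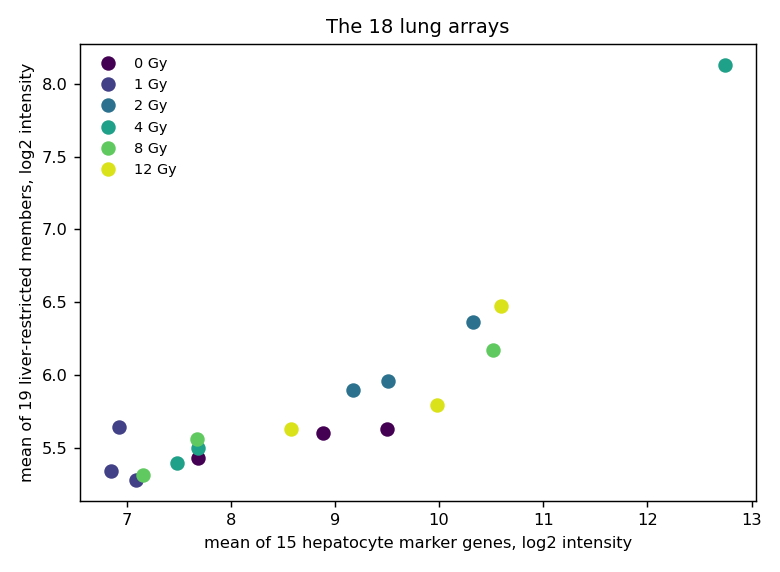
Mean log2 level of 15 hepatocyte markers against that of 19 member genes restricted to liver, 1 point per lung, coloured by dose. The 4 Gy lung of mouse 24 lies apart at 12.74 and 8.13.

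Other genes of the conjugation pathway, from lists named for their role, moved in part, and their counts are to be read against the 7.01% of all liver probes and 21.4% of all lung probes that passed at 12 Gy. Those shares hold both directions, and 1116 of 38362 liver probes and 5958 of 43979 lung probes passed higher. Mgst3, a microsomal glutathione transferase outside the symbol rule, stood in liver at 10.83, 10.94 and 11.11 at 0 Gy and at 11.53, 11.67 and 11.66 at 12 Gy. It rose by 0.66 (SE 0.188, adjusted p = 0.047), and in lung it changed by 0.49 (adjusted p = 0.173). In liver at 12 Gy the other conjugating enzymes counted 3 of 15 risen, with Ephx1, microsomal epoxide hydrolase, at 1.07, and 3 fallen, with Mgst2, a microsomal glutathione transferase, at -0.78. In lung 1 of 14 rose, Ephx1 at 1.49. Of 13 genes that supply cofactors, 1 rose and 2 fell in liver, where Papss1, a synthase of the sulfate donor, fell by 0.73 and Papss2 rose by 0.42. In lung 3 of 13 rose, to be read against those shares, with Papss2 at 1.08 and Gsr, glutathione reductase, at 0.66.

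Among the regulators 6 of 13 rose in liver at 12 Gy and none fell, with Nr1i3, the receptor CAR, at 1.17, Nr1i2, the receptor PXR, at 0.69, Ahr at 0.60 and Nfe2l2, the factor Nrf2, at 0.60. In lung 3 of 12 rose, with Nfe2l2 at 0.51, beside 21.4% of all probes passing in either direction and 5958 of 43979 passing higher. The 13 regulators include Ppara, the receptor PPAR alpha, and 12 target genes were listed for them together. Of these target genes 3 rose in liver, Cyp4a14 by 2.19, Cyp4a10 by 1.32 and Nqo1, a classic Nrf2 target, by 1.21. The listed Cyp1a1, Cyp1a2, Cyp2b10 and Cyp3a11 were not among the 3, and which regulator a rise belongs to was not tested. In lung 2 of 10 rose, again to be read against those shares, Nqo1 by 1.33 and Cyp2b10 by 0.58. Of 7 efflux transporters, which carry conjugates out of the cell, 4 rose in each tissue, with Abcc3 at 0.78 in liver and 0.62 in lung and Abcb1b at 0.56 in liver and 1.38 in lung. The median change of this list at 12 Gy was 0.56 in liver and 0.51 in lung.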

How the data were processed

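RNA of 18 livers and 18 lungs was hybridised to 1-colour Agilent mRNA arrays, 36 of the 72 arrays of the series. The authors deposited scanner output of Agilent Feature Extraction 11.5.1.1 (submitters' processing notes), whose intensity values are the median pixel of a spot and of its surroundings, not yet normalised. The deposited series table holds linear intensity values by an unstated procedure and was used as an alternative. Intensities were corrected by normexp (offset 0), outlier spots were left out, arrays were quantile-normalised within tissue (all 36 together for comparisons between tissues), and log2 values were averaged per probe (R 4.3.3, limma 3.58.1, statmod 1.5.0). Normexp, quantile normalisation and limma follow the study's methods. Detection used the scanner's flag, required for a share of 0.5 or more of a probe's spots, and probes detected on 1 array or more were tested. Each dose, a linear dose trend and tissue differences were fitted with limma, with Benjamini-Hochberg adjustment, and the fits were tested on simulated data. Where 1 group had no array above background, the fold is a lower limit, for which undetected values were raised to the lowest detected signal of their array where they lay under it. Genes are represented by their brightest probe. Named are Gsta2, Sult2a4 and Mgst3, every called member, the 5 largest tissue differences each way and the brightest gene of each class, and other genes were chosen after their values were seen. Members and lists were chosen with earlier results of these data known. RefSeq coordinates are of GRCm38. Member probes were named through RefSeq accessions, and 9009 probes listed by Ensembl transcript were not used here. Alternatives were other background corrections, scalings, filters and slide terms and leaving out each mouse. The 3 samples of a group are separate mice. The value of 1 gene of the pathway lists is not reported here.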

Additional observations from a re-analysis of the deposited data

Results flagged for a closer look

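For 11 member probes of 9 genes the dose trend differed between lung and liver by a test of the difference itself (limma on 36 arrays), in each case with the higher trend in lung. That was 15.3% of the 72 member probes tested, beside 16.5% of all probes. Of all probes 5188 passed with the higher trend in lung and 2650 with the lower. Values are log2, over 12 Gy. The difference was 2.17 (adjusted p = 0.00501) for Gsto2. The difference was 1.61 (adjusted p = 0.000308) for Sult5a1. The difference was 1.01 (adjusted p = 0.00452) for Gstm2. The difference was 0.925 (adjusted p = 0.00189) for Sult1a1. The difference was 0.91 (adjusted p = 0.00299) for Gstm6. The difference was 0.88 (adjusted p = 6.48e-05) for Gsta3. The difference was 0.876 (adjusted p = 0.00215) for a further probe of Sult1a1. The difference was 0.741 (adjusted p = 0.0236) for Gstm5. The difference was 0.688 (adjusted p = 0.0323) for Gstt3. The difference was 0.624 (adjusted p = 0.00463) for a further probe of Gsta3. The difference was 0.584 (adjusted p = 0.00423) for Gstz1. Second probes of Sult5a1, Gstm5, Gstm6 and Gstz1 did not pass, nor did that of Gsto2, which was near background. Tissue and slide are closely tied here, and with slide as a term none of them was called. The liver trend of Gsto2 rests on low values, with 1 liver, the 1 Gy mouse 22 at 9.03, apart from the rest.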

How the results depend on the processing

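Under the alternatives and with each mouse left out, counts of called member probes stayed within 1.5 times the value in the text in 195 cases and moved further in 17, and named genes kept direction and side of the threshold in 750 cases, lost the call in 69 and reversed in 2. The liver dose comparisons called 4 probes, 2 from the deposited series values, 2 with both tissues fitted together and 0 with slide as a term. The lung dose comparisons called 6, 3 with a normexp offset of 50, 3 with slide as a random block, and 3 without 4 Gy mouse 24 and 12 Gy mouse 16. The lung trend called 4, 0 with slide as a term and 2 without those 2 mice, an alternative chosen after seeing the data. The difference of trends called 3 and 0 with slide as a term. Lung 12 against 8 Gy called 0, and 1 from the deposited series values. The cause was not tested. Lung dose comparisons with slide as a fixed term could not be fitted and were not run.

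With each mouse left out, the liver dose comparisons gave 0 to 4 (0 without control mouse 11, 1 without control mouse 21), the liver trend 0 to 2 (2 without 12 Gy mouse 6, 1 without mouse 16), the lung dose comparisons 3 to 7 (3 without control mouse 21 and without 12 Gy mouse 16), the lung trend 2 to 6 (2 without 12 Gy mouse 16), the difference of trends 2 to 4 and lung against liver 58 to 60. The liver trend of Sult2a4, -0.57, ranged from -1.20 without control mouse 1 to 0.36 with a mouse left out, and turned to 0.07 without 12 Gy mouse 6 and 0.36 without mouse 16. With sample number as a replicate block, pairing liver and lung, the difference of trends again called 3 and lung against liver 60. Same-numbered samples correlated between -0.165 and 0.250 in their deviations (18 pairs, 3 above 0.1, own number best in 8). These values do not settle whether a number marks 1 mouse. Genes near background, such as lung Sult1e1 and liver Gsto2, are limited by signal over background.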
